A study of Mus musculus with 6 samples.

Results

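Interferon response genes are the genes that cells switch on when an interferon, a cytokine secreted during infection, binds its receptor. A panel of 38 mouse genes was taken by symbol: the 4 receptor subunits for type I interferons and interferon gamma, 6 transcription factors of the response, and 28 induced genes of antiviral defence. All 38 were among the 25528 genes of the count tables. The panel was set by name, not by a threshold on the counts, and was put together with earlier results of these data known.

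Type I interferons act through the receptor subunits Ifnar1 and Ifnar2, and interferon gamma through Ifngr1 and Ifngr2. Receptor-bound kinases then activate STAT proteins. STAT2 joins IRF9 in a complex that binds the interferon-stimulated response element (ISRE) in promoters, and IRF proteins bind closely related sequences. The induced genes encode RNA sensors, nucleases, GTPases and membrane proteins that restrain viruses, and many are also expressed at a low level in epithelium with no added interferon.

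RNA was sequenced from mouse stomach corpus organoids, epithelial structures grown in three-dimensional culture from the acid-secreting part of the stomach. The 3 libraries of the Erbb2 overexpression group carried an Erbb2 construct, and the 3 control libraries came from organoids transduced with an empty vector. The labels give no animal age, strain, interferon or drug treatment, vector type or promoter, and do not say whether a group is 1 line or whether its libraries came from separate cultures. The spread behind each p-value is that between these libraries, and it may be technical. Total counts lay between 18735853 and 22767455 per library.

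Erbb2, which encodes the overexpressed receptor tyrosine kinase, was at 125, 164 and 128 CPM (counts per 1000000 after TMM, trimmed mean of M, scaling) in control replicates 1, 2 and 3 and at 342, 349 and 285 CPM in the Erbb2 libraries, without overlap (log2 fold change 1.23, SE 0.15, edgeR adjusted p = 0.640; with the replicate number as a block, adjusted p = 3.55e-05). The epithelial markers Epcam, Cdh1, Krt8, Krt18, Krt19, Cldn7 and Cldn18 summed to between 7003 and 8658 CPM in each library. Of 12 immune cell markers 6 had no count in any library, among them Itgax, Adgre1 and Siglech, and the list summed to between 1.25 and 2.53 CPM. Fibroblast markers (4 of 7 at 0, among them Dcn and Col1a2) summed to between 0.695 and 1.70 CPM. Endothelial markers (1 of 5 at 0, Emcn) reached at most 0.845 CPM, apart from 9.28 CPM in Erbb2 replicate 3, of which Tek made up 8.95 CPM. The acid pump gene Atp4b of parietal cells had no count in any library, while Atp4a, on the same marker list, was at 2.87 to 5.41 CPM. Pgc of chief cells averaged 69.8 CPM over the 6 libraries. Cblif, also on that list, was at 3.48, 1.86 and 38.2 CPM in controls and 3.62, 0.793 and 32.1 CPM in Erbb2 libraries. The leading principal component held 57.8% of the variance between libraries. Scores on it were -20.0, -50.1 and 38.8 in control replicates 1, 2 and 3 and 1.71, -20.6 and 50.1 in the Erbb2 libraries. Both replicate 3 libraries thus lay at the high end and control replicate 2 at the low end. Results are also given without replicate 3 and, with the block, without each replicate number in turn.

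The ISRE core, GAAANNGAAA read on either strand, was searched in the 250 bases before the annotated transcription starts (RefSeq, GRCm38.p6). Of the 29 members with an entry, 12 had a match, namely Bst2, Gbp2, Gbp3, Gbp7, Ifit1, Ifit3, Irf2, Isg15, Oas1a, Rsad2, Stat2 and Trim30a; of all 27025 genes with an entry, 3.46% did. The STAT-binding GAS motif, TTCNNNGAA, which is its own reverse complement, was present in 8 of the 29 and in 8.13% of all genes. In 1 member window a GAS match overlapped an ISRE core. The 4 members with a match and the highest mean CPM are shown. Each sequence is the 250 bases upstream of the start, 5′ to 3′ on the strand of the gene, and capitals mark the ISRE core matches.
Irf2 (chr8:46739495-46739744, plus strand): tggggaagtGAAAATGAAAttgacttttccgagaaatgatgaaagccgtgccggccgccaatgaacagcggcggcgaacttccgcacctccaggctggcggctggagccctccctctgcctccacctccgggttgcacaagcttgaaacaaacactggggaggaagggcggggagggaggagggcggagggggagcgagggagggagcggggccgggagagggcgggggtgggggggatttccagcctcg
Stat2 (chr10:128270248-128270497, plus strand): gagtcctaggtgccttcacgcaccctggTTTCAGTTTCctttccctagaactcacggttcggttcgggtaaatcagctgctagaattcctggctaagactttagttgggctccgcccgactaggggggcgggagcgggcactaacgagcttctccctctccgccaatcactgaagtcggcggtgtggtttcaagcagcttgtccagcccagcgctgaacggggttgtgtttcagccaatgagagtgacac
Bst2 (chr8:71537473-71537722, minus strand): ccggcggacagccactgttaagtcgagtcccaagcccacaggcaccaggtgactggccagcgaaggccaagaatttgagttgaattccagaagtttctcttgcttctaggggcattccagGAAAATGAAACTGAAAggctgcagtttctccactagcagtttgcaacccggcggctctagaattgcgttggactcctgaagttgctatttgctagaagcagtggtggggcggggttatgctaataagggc
Oas1a (chr5:120907526-120907775, minus strand): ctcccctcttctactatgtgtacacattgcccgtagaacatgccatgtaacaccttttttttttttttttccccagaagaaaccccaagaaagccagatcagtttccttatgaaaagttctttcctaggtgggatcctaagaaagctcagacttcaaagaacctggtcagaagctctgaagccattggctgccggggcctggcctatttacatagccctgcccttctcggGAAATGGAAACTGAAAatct
The match began 241 bases before the start in Irf2 and 222 in Stat2. Bst2 and Oas1a each held 2 overlapping matches, the first beginning 130 bases before the start in Bst2 and 20 in Oas1a.

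Of the 38 members, 26 were detected at 1 CPM or more in at least 3 libraries. All 4 receptor subunits and all 6 transcription factors were among them, as were the RNA sensors Ifih1 and Dhx58. The other detected members were Isg20, Oas1a, Oasl2, Rsad2, Cmpk2, Mx1, Bst2, Ifitm3, Rtp4, Xaf1, Parp9, Parp14, Ifi27 and Ifi35. The 12 that were not detected were Isg15, Usp18, Ifit1, Ifit2, Ifit3, Mx2, Trim30a, Gbp2, Gbp3, Gbp7, Zbp1 and Ifi44, which reached at most 1.59 CPM in any library. The genes near the limit of counting thus included Isg15, the 3 IFIT members and the 3 guanylate-binding proteins, while each receptor and transcription factor was detected. Of the 12 members with an ISRE core 5 were detected, against 15 of the 17 with an entry and no match. The 17 hold all 4 receptor subunits and Irf1, Irf3, Irf7 and Irf9, while Stat2 and Irf2 are among the 12. Motif and kind of gene cannot be told apart here, and a link of the motif with level was not tested.

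Per kilobase of the longest annotated transcript, mean levels of the detected members ran from 0.255 CPM for Rsad2 to 102 CPM for Ifitm3, which encodes a membrane protein that blocks viral entry. After Ifitm3 came Ifngr1 at 51.1, Irf2 at 31.04, Irf3 at 26.1, Isg20 at 20.8 and Ifngr2 at 17.6 CPM per kilobase. The lowest were Rsad2, Cmpk2, Dhx58, Xaf1 and Irf7, at up to 1.36 CPM per kilobase. Irf2, a factor that competes with IRF1 on the same sites, and Irf3, which is held inactive in the cytoplasm until a sensor fires, stood above Irf7 on this scale, which type I interferon itself induces.

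**Figure D1:**
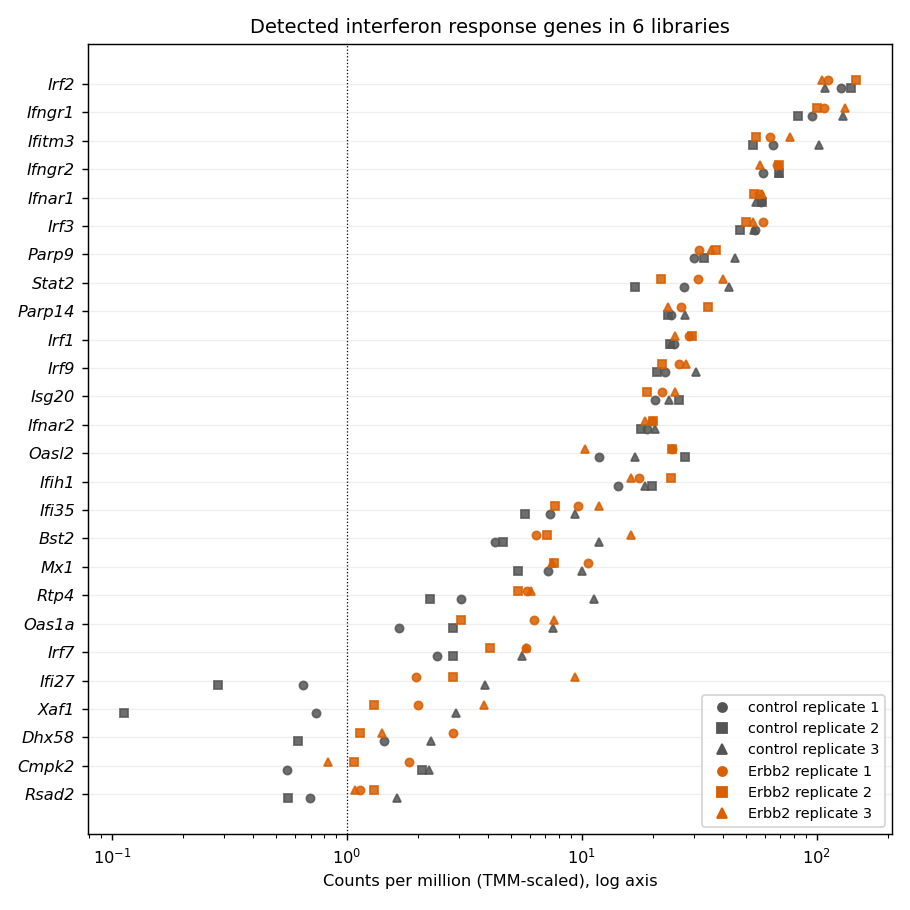
CPM (log axis) of the 26 detected members in each of the 6 libraries, ordered by mean level; grey symbols are controls, orange symbols Erbb2 libraries, and the symbol shape gives the replicate number. The dotted line marks 1 CPM. Members at the top lie close together across libraries, while Ifi27 and Xaf1 spread over more than a decade.

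The comparison of Erbb2 overexpressing with control organoids asked whether these genes differ at the level of RNA in culture. After genes with few counts were removed, 31 members were among the 12593 genes tested. In the fit with the group as its single term, 0 of the 31 passed an adjusted p of 0.05 (edgeR quasi-likelihood test, Benjamini-Hochberg adjustment), and 0 had an unadjusted p under 0.05. Over all genes tested, 0% passed the adjusted threshold and 3.33% had an unadjusted p under 0.05. DESeq2 called 0 members and 0.181% of all genes at the same threshold, and limma voom 0 members.

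Libraries of the same replicate number deviated alike from their group means in these counts, though the labels do not say that the numbers pair samples. With the number as a block 1 of 31 members passed, Ifi27, as higher (edgeR). Of all tested genes 3.09% passed, 2.37% as higher and 0.723% as lower. At an unadjusted p under 0.05 there were 4 members with the block (Ifi27, Bst2, Xaf1 and Ifi35), all higher, where 16.9% of all tested genes had such a p, 9.64% as higher. The single call is about the share of all genes; the 4 lie below the share in both directions together and above that for higher alone. The median log2 fold change over the 31 was 0.13 without the block, beside -0.01 over all tested genes. With the block, 22 of the 31 stood above 0, where 48.4% of all genes did. Members reach the tested set by having enough counts in a group, so that these summaries describe the tested members and not all 38.

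**Figure D2:**
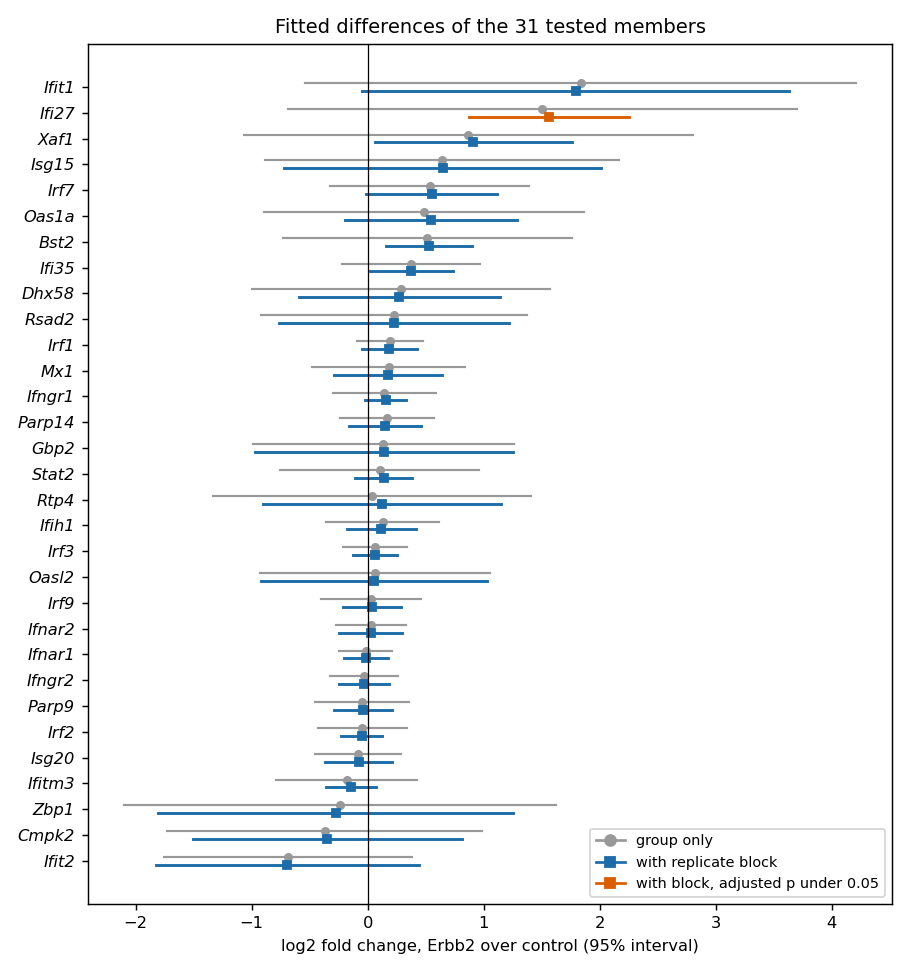
Fitted log2 fold change (Erbb2 over control) with its 95% interval for the 31 tested members, from the fit with the group alone (grey) and with the replicate number as a block (blue, or orange where the adjusted p was under 0.05). Ifi27 at 1.56 is the one orange interval; the receptors and most transcription factors have narrow intervals around 0.

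The subunits of the type I interferon receptor were present at even levels. Ifnar1, the subunit that binds TYK2, was at 57.8, 58.5 and 55.2 CPM in control replicates 1, 2 and 3 and at 56.8, 54.0 and 58.6 CPM in the Erbb2 libraries. Its partner Ifnar2 was at 19.0, 17.8 and 20.6 CPM in controls and at 19.9, 20.2 and 18.5 CPM in Erbb2 libraries. Neither group stood above the other for either gene, and the highest library exceeded the lowest by a ratio of 1.09 for Ifnar1 and 1.16 for Ifnar2. The 95% intervals of the log2 fold change ran from -0.25 to 0.21 for Ifnar1 and from -0.27 to 0.33 for Ifnar2.

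Ifngr1, the ligand-binding subunit for interferon gamma, was at 95.4, 83.1 and 129 CPM in controls and at 108, 100 and 131 CPM in Erbb2 libraries. Replicate 3 was the highest in both groups and the groups overlapped (log2 fold change 0.14, SE 0.19). Ifngr2, the signalling subunit, was at 59.1, 69.3 and 69.1 CPM in controls and at 67.6, 68.8 and 57.0 CPM in Erbb2 libraries, again with overlap (log2 fold change -0.03, SE 0.12). Both intervals lay within 1 log2 unit of 0.

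Among the transcription factors, Irf1 was the single one whose groups did not overlap. It encodes an activator induced by interferon gamma and was at 24.7, 23.7 and 24.0 CPM in controls and at 28.5, 29.4 and 24.8 CPM in the Erbb2 libraries. The gap was small, since Erbb2 replicate 3 was close to the highest control, and the log2 fold change was 0.19 (95% interval -0.09 to 0.48). Of all tested genes, 8.75% had groups that did not overlap, 4.27% with the Erbb2 group higher and 4.48% with it lower; of the 31 tested members 2 did, Irf1 as higher and Ifit2 as lower.

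Stat2, the partner of IRF9, was at 27.2, 16.9 and 42.3 CPM in controls and at 31.3, 21.6 and 40.05 CPM in Erbb2 libraries. Its order was the same in both groups, with replicate 3 the highest and replicate 2 the lowest, and the spread within each group was far larger than the difference between them (log2 fold change 0.10, SE 0.36). Irf9 followed the same order at a smaller range, with 22.6, 20.8 and 30.6 CPM in controls and 25.9, 22.0 and 27.8 CPM in Erbb2 libraries (log2 fold change 0.03, SE 0.18).

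Irf2 and Irf3 were steady. Irf2 was at 126, 140 and 108 CPM in controls and 112, 147 and 105 CPM in Erbb2 libraries, and Irf3 at 54.7, 47.0 and 54.1 CPM and at 59.0, 49.99 and 53.7 CPM. The intervals of their log2 fold changes ran from -0.43 to 0.34 and from -0.21 to 0.34. For Irf2, replicate 2 was the highest in both groups.

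Irf7, the factor that amplifies type I interferon production, was at 2.41, 2.82 and 5.55 CPM in controls and at 5.80, 4.08 and 5.79 CPM in the Erbb2 libraries. Control replicate 3 lay among the Erbb2 libraries and the other controls below them. The log2 fold change was 0.53 (95% interval -0.32 to 1.39) and the ratio within pairs 1.27, 0.53 and 0.06 on the log2 scale for replicates 1, 2 and 3. With the block and all libraries the log2 fold change was 0.55 (SE 0.26, adjusted p = 0.310 in edgeR). Without replicate 3 Irf7 passed with the block, in a fit on 4 libraries (log2 fold change 0.95, SE 0.31, adjusted p = 0.0299 in edgeR). Without replicates 1 and 2 in turn it did not pass with the block (log2 fold change 0.24 and 0.59, adjusted p = 0.820 and 0.583 in edgeR).

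Ifi27, which encodes a small interferon-induced membrane protein and lies on chromosome 12 (ENSMUSG00000064215), was the member with the smallest p in the fit with the block. It was at 0.649, 0.282 and 3.87 CPM in control replicates 1, 2 and 3, from 14, 5 and 90 counts. In the Erbb2 libraries it was at 1.96, 2.83 and 9.33 CPM, from 45, 50 and 224 counts. The groups overlapped, because control replicate 3 stood above Erbb2 replicates 1 and 2, but each Erbb2 library stood above the control of its own number. With the block it rose 2.95-fold (log2 fold change 1.56, SE 0.32, adjusted p = 0.0197 in edgeR), and without the block the log2 fold change of 1.51 had an SE of 0.92 and an adjusted p of 0.9997. The call with the block was lost without replicate 1 (adjusted p = 0.0512, log2 fold change 1.61) and without replicate 2 (0.0682, log2 fold change 1.36), and was kept without replicate 3 (0.00121, log2 fold change 2.27). Each of these fits rests on 4 libraries. Genes of the same family can share its reads; of these Ifi27l2b was at 13.5, 17.3 and 11.5 CPM in controls and 11.3, 13.1 and 7.99 CPM in Erbb2 libraries.

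Xaf1, which encodes a proapoptotic partner of the inhibitor protein XIAP, was likewise lowest in control replicate 2 and highest in Erbb2 replicate 3. It was at 0.741, 0.113 and 2.93 CPM in controls and at 2.01, 1.30 and 3.83 CPM in Erbb2 libraries, with control replicate 2 resting on 2 counts. Each Erbb2 library was above the control of its number, and the highest library exceeded the lowest by a ratio of 34.0. Its log2 fold change was 0.87 (SE 0.81) without the block and 0.91 (SE 0.39, adjusted p = 0.263 in edgeR) with it. Without replicate 3 and with the block, on 4 libraries, it was 1.89 (SE 0.60, adjusted p = 0.0278 in edgeR). With the block and without replicates 1 and 2 in turn it was 0.79 and 0.72 (adjusted p = 0.560 and 0.589 in edgeR).

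Bst2, which encodes tetherin, a protein that holds budding virions at the cell surface, was at 4.26, 4.62 and 11.8 CPM in controls and at 6.37, 7.13 and 16.2 CPM in Erbb2 libraries. Replicate 3 was highest in both groups, and within pairs the log2 ratios were 0.58, 0.63 and 0.45. Bst2 missed the threshold over all genes with and without the block (adjusted p = 0.136 and 0.9997 in edgeR). Ifi35, whose protein pairs with NMI, had similarly even pair ratios of 0.39, 0.42 and 0.33, at 7.32, 5.75 and 9.38 CPM in controls and 9.59, 7.70 and 11.8 CPM in Erbb2 libraries (adjusted p = 0.271 with the block).

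Oas1a encodes an oligoadenylate synthetase of antiviral defence, and near-identical Oas1 genes can share its reads. It was at 1.67, 2.82 and 7.53 CPM in controls and at 6.24, 3.06 and 7.58 CPM in Erbb2 libraries. Replicate 3 was alike in both groups, and the log2 ratios in the pairs were 1.90, 0.12 and 0.01. It passed with the block and without replicate 3, on 4 libraries (log2 fold change 1.11, SE 0.33, adjusted p = 0.0193 in edgeR). With all libraries it did not pass without the block (log2 fold change 0.49, SE 0.58) or with it (0.55, SE 0.33, adjusted p = 0.457 in edgeR). With the block and without replicates 1 and 2 in turn it did not pass either (log2 fold change 0.05 and 0.72, adjusted p = 0.972 and 0.588 in edgeR).

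Rtp4, a receptor transporter, was higher in the Erbb2 library of replicates 1 and 2 and lower in that of replicate 3. It was at 3.06, 2.25 and 11.3 CPM in controls and at 5.84, 5.32 and 6.08 CPM in Erbb2 libraries. The Erbb2 libraries were nearly equal, while control replicate 3 was the highest of all 6 and the other controls the lowest. With all libraries the log2 fold change was 0.04 (SE 0.58) without the block and 0.12 (SE 0.42, adjusted p = 0.925 in edgeR) with it. It was 1.07 (SE 0.29, adjusted p = 0.00752 in edgeR) with the block and without replicate 3, on 4 libraries. With the block it was -0.13 without replicate 1 and also -0.13 without replicate 2 (adjusted p = 0.960 in either fit, edgeR).

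Dhx58 and Cmpk2 were low and uneven. Dhx58, the sensor LGP2, was at 1.44, 0.620 and 2.28 CPM in controls and at 2.83, 1.13 and 1.42 CPM in Erbb2 libraries. Cmpk2, a mitochondrial nucleotide kinase whose gene neighbours Rsad2, was at 0.556, 2.08 and 2.24 CPM in controls and at 1.83, 1.08 and 0.833 CPM in Erbb2 libraries. Both were lower in Erbb2 replicate 3 than in its control and higher in Erbb2 replicate 1. Their log2 fold changes were 0.29 (SE 0.54) and -0.37 (SE 0.57).

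Ifitm3, the member with the highest level per kilobase, was at 64.8, 53.3 and 103 CPM in controls and at 63.2, 55.1 and 76.8 CPM in Erbb2 libraries. Replicate 3 was the highest in both groups. Its log2 fold change was -0.18 (95% interval -0.79 to 0.43). Parp9 and Parp14, ADP-ribosyltransferases of the response, had log2 fold changes of -0.05 and 0.17, Isg20, an exonuclease, one of -0.09, and Ifih1, the sensor MDA5, one of 0.13. Mx1, a dynamin-like GTPase, stood at 0.18, Oasl2 at 0.06 and Rsad2, which encodes viperin, at 0.23. The 95% interval lay within 1 log2 unit of 0 for 16 of the 31 tested members, among them 5 of the 6 transcription factors, Irf7 being the exception.

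The members that were not detected gave little basis for a comparison. Isg15, a ubiquitin-like modifier, had 4, 5 and 15 counts in control replicates 1, 2 and 3 and 16, 6 and 17 in the Erbb2 libraries, and its deconjugating enzyme Usp18 had 5, 2 and 14 and 1, 3 and 17. Ifit1, which binds foreign RNA ends, had 0, 7 and 11 counts in controls and 34, 28 and 4 in Erbb2 libraries. By unscaled totals the 0 in control replicate 1 allows up to 0.140 CPM, counting error only. Ifit1 was thus higher in Erbb2 replicates 1 and 2 and lower in replicate 3, with a log2 fold change of 1.83 (SE 1.01) over all libraries.

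Ifit2, of the same family, had 16, 15 and 21 counts in controls and 11, 12 and 10 in Erbb2 libraries, and its groups did not overlap (log2 fold change -0.69, 95% interval -1.76 to 0.38). Zbp1, a sensor that triggers necroptosis, had 12, 5 and 33 counts in controls and 9, 25 and 8 in Erbb2 libraries, and Gbp2, a guanylate-binding GTPase, had 11, 12 and 19 and 19, 8 and 21. Neither group was higher throughout for Zbp1 or Gbp2. Ifit3, Mx2, Trim30a, Gbp3, Gbp7, Ifi44 and Usp18 were below the filter and not tested, at up to 1.16 CPM.

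Within each numbered pair the 26 detected members did not behave alike. In replicate 1, 23 of 26 were higher in the Erbb2 library, with a median log2 ratio of 0.25, and in replicate 2, 21 of 26, with a median of 0.27. In replicate 3, 10 of 26 were higher and 16 lower, with a median of -0.11. Of all tested genes, 49.1%, 50.5% and 49.7% were higher in the Erbb2 library of replicates 1, 2 and 3. Of the 31 tested members 9 were higher in 3 of 3 pairs (Ifngr1, Irf1, Irf7, Isg15, Oas1a, Bst2, Xaf1, Ifi27 and Ifi35), where 19.6% of all tested genes were. Whether the pairs differ beyond chance was not tested, since each pair is 1 library against 1.

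**Figure D3:**
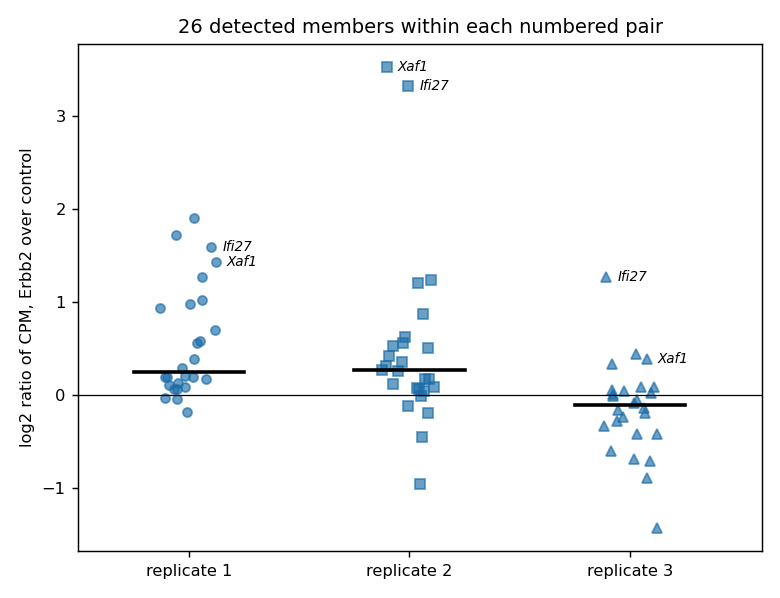
log2 ratio of CPM (Erbb2 over control) of the 26 detected members within each pair of libraries with the same replicate number; each point is a gene and bars are medians. The medians are 0.25, 0.27 and -0.11 for replicates 1, 2 and 3, and Ifi27 and Xaf1 are above 0 in each.

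Among the controls, replicate 3 stood out. Control replicate 3 stood above the mean of the other controls for 22 of 26 detected members, with a median log2 ratio of 0.53, where 50.2% of all tested genes did. Erbb2 replicate 3 stood above the mean of the other Erbb2 libraries for 14 of 26, with a median of 0.06. Control replicate 2 was the lowest of all 6 libraries for 15 members and control replicate 1 for 6, while control replicate 3 and Erbb2 replicate 1 were the lowest for 0. Over all tested genes, control replicate 2 was lowest for 23.1% and control replicate 1 for 13.5%. The summed CPM of the 38 members was 686, 691 and 843 in control replicates 1, 2 and 3 and 754, 755 and 780 in the Erbb2 libraries.

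**Figure D4:**
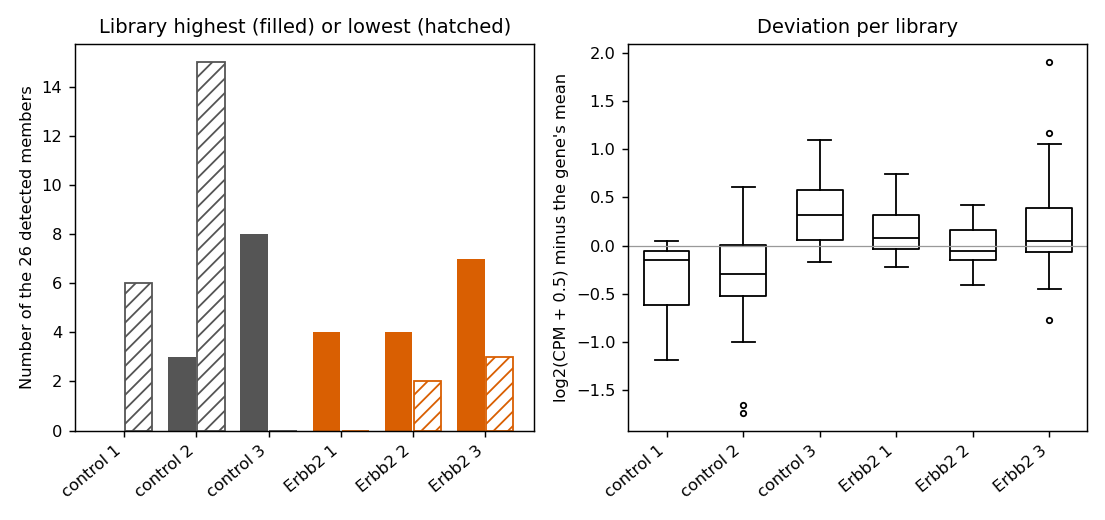
Left, number of the 26 detected members for which each library was the highest (filled) or the lowest (hatched) of the 6; right, deviation of log2(CPM + 0.5) from the mean of each gene over 6 libraries (box, quartiles; line, median; whiskers reach the farthest points within 1.5 interquartile ranges). Control replicate 2 is lowest for 15 members, and the median deviation is 0.32 in control replicate 3.

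The spread between libraries was wide for part of the panel. The ratio of the highest to the lowest library had a median of 1.95 over the 26 detected members and of 1.52 over 12520 tested genes with counts in every library. Of the members 12 of 26 exceeded 2, as did 27.6% of these genes. Members above 2 included Xaf1, with 2 counts in control replicate 2, but also Stat2 (300 to 983 counts, ratio 2.50) and Oasl2 (247 to 553 counts, ratio 2.67). The part of low counts in this ratio was not tested. The receptors and Irf1, Irf2, Irf3 and Irf9 stayed under 2.

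Leaving out both libraries of replicate 3 changed the count of members called in the fit with the block and left it at 0 of 30 in the fit without it, where 0.072% of all tested genes passed. In that unblocked fit 6 members had an unadjusted p under 0.05, beside 6.49% of all genes. With the block, 6 of 30 tested members then passed, all higher: Irf7, Rtp4, Ifit1, Xaf1, Oas1a and Ifi27, where 8.71% of all tested genes passed and 6.15% as higher (edgeR). Of these 6, Ifit1, Xaf1 and Ifi27 had under 10 counts in a control library, and Ifit1 in both, so that it entered the test through its Erbb2 counts alone. Without replicate 1 and without replicate 2, 0 members passed, at 1.69% and 1.14% of all genes. Without replicate 1, an unadjusted p under 0.05 was reached by 4 of 32 tested members, 2 higher and 2 lower, beside 12.9% of all genes (7.79% higher and 5.07% lower). Without replicate 2 it was reached by 2 of 34, both higher, beside 10.2% (6.52% higher and 3.72% lower). Without replicate 3 it was reached by 13 of 30, all higher, beside 19.9% (11.8% higher and 8.11% lower). The fits without a pair rest on 4 libraries. With the block they leave 1 degree of freedom per gene for the variance, so their p-values rest largely on variance estimated across genes. Without replicate 3 the block gave 1089 calls over all genes, against 389 with all libraries. Cldn18 then had an adjusted p of 8.79e-27 (edgeR). The passes of members in these fits are to be read with that limit.

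No interferon was counted that could be compared. Of 14 interferon genes, among them Ifnb1, Ifng, Ifnl2 and Ifnl3 and 8 Ifna genes, 13 had no count in any library. By unscaled totals a count of 0 allows at most 0.160 CPM in the shallowest library, counting error only. Reads shared between near-identical genes, such as the Ifna genes, may be missing from these counts, which was not tested. Ifne had 2 counts in Erbb2 replicate 3. Of 13 genes of the lambda receptor, receptor kinases and negative regulators, 12 were tested and 0 passed with or without the block (edgeR); with the block 2 higher and 1 lower had an unadjusted p under 0.05, beside 16.9% of all tested genes. Tyk2, a kinase bound to IFNAR1, was at 32.0, 37.6 and 42.7 CPM in controls and at 40.1, 42.4 and 53.0 CPM in Erbb2 libraries. Cish, a cytokine-induced inhibitor, was at 15.9, 14.8 and 17.3 CPM in controls and 23.8, 18.8 and 18.6 CPM in Erbb2 libraries, without overlap. Their adjusted p with the block was 0.156 and 0.224.

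Of 15 nucleic acid sensing genes, all tested, 1 rose with the block, where 2.37% of all tested genes rose, and 0 passed without it. This was Ikbke, a kinase that activates IRF3 and IRF7, at 16.5, 16.0 and 36.3 CPM in controls and at 27.3, 27.0 and 42.0 CPM in Erbb2 libraries (log2 fold change 0.53, SE 0.13, adjusted p = 0.0449 in edgeR with the block). The call was lost without replicate 1 (adjusted p = 0.206) and without replicate 2 (0.248), with a log2 fold change of 0.46 in either case. Each pair was higher, although control replicate 3 lay above Erbb2 replicates 1 and 2. Sting1, the adaptor that cyclic GMP-AMP activates, was at 6.07, 3.89 and 15.9 CPM in controls and at 13.3, 12.003 and 19.1 CPM in Erbb2 libraries (edgeR adjusted p = 0.0890 with the block).

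Of 51 further interferon-induced genes, 38 were tested, and 1 rose and 0 fell with the block, where 2.37% of all tested genes rose. That share is about the share over all genes. Helz2, a helicase coactivator, was at 21.6, 19.0 and 30.3 CPM in controls and at 35.8, 33.0 and 38.3 CPM in Erbb2 libraries, without overlap (log2 fold change 0.61, SE 0.12, adjusted p = 0.0155 in edgeR with the block and 0.9997 without it). Without replicates 1 and 2 in turn its log2 fold change was 0.55 and 0.54 and the call was lost (adjusted p = 0.0992 and 0.129). Epsti1 had no overlap either, at 6.95, 7.72 and 9.08 CPM in controls and 12.04, 10.4 and 13.9 CPM in Erbb2 libraries (adjusted p = 0.0635 with the block). The median log2 fold change of the 38 was 0.13 without the block. Of 15 interferon-gamma-responsive genes 9 were tested and 0 passed. With the block 7 of the 9 stood above 0, beside 48.4% of all tested genes, and 2 had an unadjusted p under 0.05, beside 16.9%. Groups did not overlap for 3 of the 9, beside 8.75% of all tested genes. The immunoproteasome gene Psmb8 was low, at 0.185, 0.338 and 0.688 CPM in controls and 0.567, 0.793 and 2.17 CPM in Erbb2 libraries, and Wars1, a tRNA synthetase, was at 291, 314 and 295 CPM and at 334, 351 and 372 CPM (adjusted p = 0.131 and 0.139 with the block).

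The epithelial marker Cldn18, like Ifi27 and Bst2, was highest in replicate 3 of each group, at 307, 318 and 920 CPM in control replicates 1, 2 and 3 and 702, 752 and 1168 CPM in the Erbb2 libraries. Its adjusted p with the block was 0.120 in edgeR. Krt19, a keratin of simple epithelium, was at 1869, 2061 and 2257 CPM in controls and 2205, 2312 and 2501 CPM in Erbb2 libraries (adjusted p = 0.247).

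Of 12 gastric corpus cell markers 9 were tested, and 1 rose and 1 fell with the block, where 2.37% of all tested genes rose and 0.723% fell. Tff2, a trefoil peptide of mucous neck cells, was at 34.2, 92.5 and 39.2 CPM in controls and at 79.4, 175 and 59.2 CPM in Erbb2 libraries, higher in each pair (log2 fold change 0.91, SE 0.11, adjusted p = 0.00167 in edgeR with the block). Sox2, a transcription factor of stomach progenitors, was at 60.2, 82.6 and 41.5 CPM in controls and at 47.5, 57.7 and 27.8 CPM in Erbb2 libraries, lower in each pair (log2 fold change -0.48, SE 0.09, adjusted p = 0.0144 with the block, and 0.163 without replicate 2). The groups overlapped for both genes, and neither passed without the block. Among markers of other cell types, the leukocyte gene Ptprc was at 1.48, 1.97 and 0.731 CPM in controls and 0.698, 1.08 and 0.4996 CPM in Erbb2 libraries, and the collagen gene Col1a1 at 0.695, 0.451 and 1.42 CPM and at 1.35, 1.08 and 1.29 CPM; neither passed.

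The mitochondrial share of counts was 8.14%, 10.6% and 8.05% in controls and 8.01%, 11.1% and 6.33% in Erbb2 libraries. The part of cell composition and of RNA quality in the differences between replicates and between groups was not tested. In bulk RNA, fewer cells of a type and less RNA per cell cannot be told apart.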

How the data were processed

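Counts of matched reads per Ensembl gene were used as deposited, 1 table per library. The submitters' processing notes name STAR, featureCounts and GRCm39; the versions, annotation and strand setting used were not given in the sources, so that overlapping antisense genes cannot be told apart. Symbols and lengths came from GENCODE M21 (GRCm38) by gene ID, which named 25424 of 25528 genes; the 104 without a symbol held at most 0.219% of counts. Promoter sequences are RefSeq's (GRCm38.p6). No tables were identical.

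The members and the gene lists were chosen with earlier results of these data known. A few list genes were looked up by older symbols. The tests used edgeR 4.0.16 (R 4.3.3) with filterByExpr (minimum count 10), TMM scaling, and the two-sided robust quasi-likelihood F test with the group as its term, adjusted by Benjamini-Hochberg over all 12593 genes at 0.05. Standard errors were obtained as |log2 fold change| / √F. Alternatives used DESeq2 1.42.0, limma 3.58.1 (voom), other scalings and filters, left-out libraries and the replicate number as a block. The fits were tested on simulated data. Intervals and limits for counts of 0 (3 counts per library) cover counting error only where they are so named.

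The sample titles give both groups the numbers 1 to 3. Each library's log2 CPM minus its group's mean was correlated, over genes, with that of its namesake, giving r = 0.333, 0.660 and 0.707. Between libraries of unlike number r ran from -0.657 to 0.128. The pairing rests on this check, which used the same counts as the fits. Whether shared cultures lie behind it was not tested. The named genes were the receptors and transcription factors, the 6 other detected members with the smallest p with the block, the 6 with the largest ratio of highest to lowest library, 2 members that were not detected, and up to 2 tested genes per pathway or marker list (1 where 1 was tested); further members named were chosen after their values were seen. Of the pathway and marker lists 2 genes are not reported here and were left out of the counts.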

Additional observations from a re-analysis of the deposited data

How the results depend on the processing

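Over all genes, edgeR with the group alone called 0, as did RLE and upper-quartile scaling, voom, both filters and edgeR's earlier method. DESeq2 called 30. The replicate block gave 389 calls, or 405 with edgeR's earlier quasi-likelihood method, added after seeing the data; with the block and a pair of libraries left out the count was 213, 145 and 1089 without replicates 1, 2 and 3. Leaving out both libraries of replicate 3 without the block gave 9, and leaving out single libraries gave between 0 and 1. Of the interferon response members, 0 were called with the group alone, 1 with the replicate block under either method, and between 0 and 6 with the block and a pair left out; single libraries left out gave 0. The detected members numbered 26 with unscaled totals too, and the median ratio of highest to lowest library stayed at 1.95 under RLE scaling. Beyond these counts, the log2 fold change of Ifi27 ranged from 0.49 without Erbb2 replicate 3 to 3.31 without control replicate 3 and passed in 3 of 19 alternatives, all with the block. That of Rtp4 ranged from -0.32 without control replicate 2 to 1.11 without control replicate 3, and that of Bst2 from -0.05 without Erbb2 replicate 3 to 1.17 without control replicate 3; neither passed in edgeR when a single library was left out. The cause of these changes was not tested. Members under about 1 CPM rest on few counts per library.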
